A study of Homo sapiens with 22 samples.

Results

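Cyclophilins are the peptidyl-prolyl isomerases that bind cyclosporin A, and 9 of their genes were followed here by name: PPIA, PPIB, PPIC, PPID, PPIE, PPIF, PPIG, PPIH and PPIL1. They were 9 of the 58735 genes listed in the count table, and all 9 were among the 17652 genes with enough counts to be tested. RNA was sequenced from 22 tumours grown as xenografts from H2110, a cell line of human lung adenocarcinoma whose genotype is labelled WT. Dosing by mouth for 3 days began once tumours measured about 300 mm³. Vehicle was given to 6 tumours, and RMC-7977 at 10 mg/kg, RMC-4550 at 30 mg/kg, Trametinib at 0.3 mg/kg or Cobimetinib at 3 mg/kg to 4 tumours each. All groups shared the same cell line, so the results describe 1 tumour model, and neither the host species nor the age of the animals is given in the labels. Replicates are separate tumours by label, with nothing to say that they came from separate animals, so p-values measure the spread between these tumours, which may be technical.

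Cyclophilins catalyse the turning of peptide bonds that precede proline, which helps proteins fold and changes how they bind partners. PPIA, cyclophilin A, is the abundant cytosolic member and the receptor through which cyclosporin A reaches calcineurin. RMC-7977 uses the same receptor in another way: it first binds cyclophilin A, and the pair then covers the active form of RAS proteins, so that PPIA acts as the presenter protein of the drug. RMC-4550 inhibits the phosphatase SHP2, and Trametinib and Cobimetinib inhibit the kinases MEK1 and MEK2, and none of these 3 needs a cyclophilin. The other members work in the endoplasmic reticulum (PPIB, PPIC), the mitochondrial matrix (PPIF), beside HSP90 (PPID) or in the nucleus with the splicing machinery (PPIE, PPIG, PPIH, PPIL1).

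PPIA has many processed copies in the genome, and how reads that fit several places were counted is not given in the sources used here. The table listed 94 rows named as PPIA copies, of which 63 had any count. Over all tumours the copies held 7767 counts against 529558 for PPIA, 1.445% of the sum, and 1.158% to 2.933% in single tumours. Of the counts of copies 3596 lay on PPIAP22 (chromosome 21, 18857779 to 18858276, plus strand, hg38). Its sequence differed from the PPIA coding sequence at 2 of 495 aligned bases, with a longest identical run of 278 bases. Bases 268 to 327 of the coding sequence, counted from the start codon in GENCODE 29 and read 5′ to 3′, are shown because they hold both differences, in capitals.
PPIA: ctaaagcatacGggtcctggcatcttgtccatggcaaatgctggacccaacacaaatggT
PPIAP22: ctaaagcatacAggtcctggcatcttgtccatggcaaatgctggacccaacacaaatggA
Within the aligned bases, a read that covers neither of these is the same for both genes. The rest of the PPIA principal transcript, which has 2238 bases in all, was not compared. Summing PPIA with all its copies left the difference from Vehicle at 0.04 under RMC-7977 on the log2 scale.

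RefSeq promoter sequences (GRCh38.p14) were matched for 7 of the 9 members, PPIE and PPIG being the others. Those of 3 members are shown, each 250 bases long and ending just before the RefSeq start: PPIA, the presenter protein and the most abundant member, and PPIC and PPIF, the members with the smallest p across groups. Capitals mark 3 motifs found on either strand, the TATA box (TATAAA), the CCAAT box and the GC box (GGGCGG), or their reverse complements. The regions are chr7:44796431-44796680 on the plus strand for PPIA, chr5:123036726-123036975 on the minus strand for PPIC and chr10:79347219-79347468 on the plus strand for PPIF.
PPIA: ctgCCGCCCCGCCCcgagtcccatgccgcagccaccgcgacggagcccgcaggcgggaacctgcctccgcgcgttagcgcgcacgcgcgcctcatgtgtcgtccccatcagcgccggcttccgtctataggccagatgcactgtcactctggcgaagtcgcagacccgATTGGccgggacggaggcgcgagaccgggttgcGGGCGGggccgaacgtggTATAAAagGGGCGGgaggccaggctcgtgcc
PPIC: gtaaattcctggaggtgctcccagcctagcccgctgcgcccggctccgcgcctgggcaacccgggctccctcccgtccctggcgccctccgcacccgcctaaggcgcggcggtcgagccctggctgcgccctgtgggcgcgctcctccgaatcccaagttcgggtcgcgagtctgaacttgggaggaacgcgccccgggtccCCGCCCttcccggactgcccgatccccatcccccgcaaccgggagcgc
PPIF: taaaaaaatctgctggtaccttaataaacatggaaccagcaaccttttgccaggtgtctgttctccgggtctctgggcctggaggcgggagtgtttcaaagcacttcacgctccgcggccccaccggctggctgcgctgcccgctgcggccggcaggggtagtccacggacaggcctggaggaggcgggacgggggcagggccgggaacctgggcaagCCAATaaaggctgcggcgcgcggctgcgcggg
The PPIA window held a TATAAA whose first base lay at -31, an ATTGG at -82 and 4 matches to the GC box GGGCGG, 2 of them overlapping. The PPIC window held 1 GC box and the PPIF window 1 CCAAT, at -32. Among 27305 RefSeq promoters of the same length, 11.133% held TATAAA, 33.038% CCAAT and 42.307% GGGCGG. The ETS letters CCGGAAGT (3.644% of promoters) were in the windows of PPID, once, and PPIL1, 2 times, and the E-box CACGTG (6.49%) in that of PPIH. None of the 7 windows held the AP-1 letters TGANTCA (6.596% of promoters) or the cyclic AMP element TGACGTCA (1.765%). These are matches of letters, not measured sites.

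Levels were compared between genes as RPKM, that is CPM (counts scaled to a common library total) per kilobase of the gene length in the table. In Vehicle tumours PPIA stood at 383 ± 71.5 RPKM (SD, n = 6), rank 39 among 19951 protein-coding genes. Its lowest Vehicle value of 302.9 lay above the highest PPIB value of 74.3, and PPIA made up 69.0% of the mean summed RPKM of the 9 members. PPIB followed at 47.3 ± 14.1, PPIF at 37.5 ± 9.90, PPIL1 at 24.1 ± 9.70 and PPIC at 23.7 ± 3.51 RPKM (SD, n = 6 each). PPIG stood at 14.0 ± 4.42, PPID at 11.6 ± 1.22, PPIH at 9.66 ± 2.16 and PPIE at 4.84 ± 1.70 RPKM. From PPIB down, the ranges of every 2 neighbours in this order overlapped. The order depends on the length used: PPIE has 8071 bases in the table and 1277 in its principal transcript, and per kilobase of that transcript it moved from the ninth place to the fifth. For scale, and chosen after their values were seen, the RAS-related targets stood at 19.9 ± 9.10 (NRAS), 23.8 ± 3.07 (HRAS) and 30.1 ± 4.36 RPKM (RIT1, the GTPase named in the study's title).

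**Figure D1:**
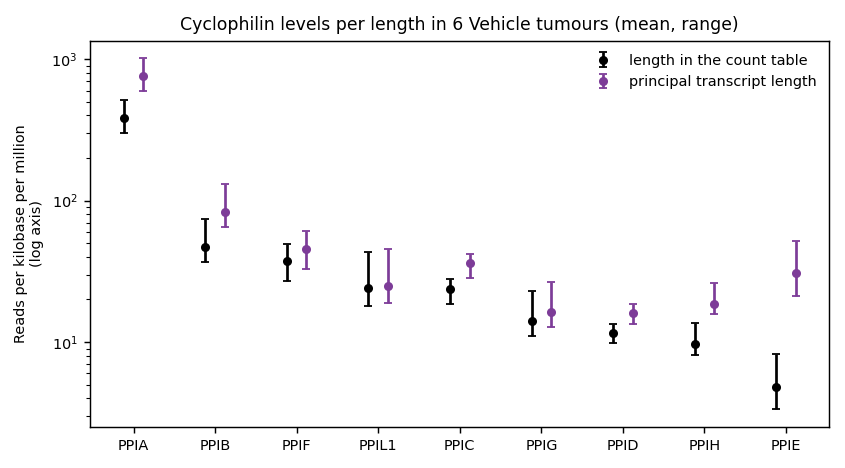
Level of each cyclophilin in the 6 Vehicle tumours, in RPKM on a log axis, by the length in the count table (black) or of the principal transcript (purple). Points are means and bars run from the lowest to the highest tumour. PPIA stands above all others under both lengths, and PPIE moves most between them.

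DUSP6, a phosphatase that ERK signalling induces, stood at 8.05 to 25.8 CPM in Vehicle tumours and at no more than 7.15 CPM in any treated one. All treated tumours lay below all Vehicle tumours in 0.017% of the genes tested. Total counts per tumour ran from 7761987 to 17265754. Trametinib replicate 4 stood apart, with 25.0% of its counts on ribosomal protein genes against 2.94% to 9.29% elsewhere and a median correlation of 0.751 with other tumours against 0.933 to 0.977. In 2 libraries few detected genes had 1 or 2 counts, 1.99% in Trametinib replicate 4 and 5.02% in RMC-7977 replicate 3, against 13.4% to 22.9% in 20 others. After Trametinib replicate 4, Vehicle replicate 1 and RMC-4550 replicate 1 had the lowest correlations (0.933 and 0.936). Epithelial markers summed to 3048 to 5983 CPM in every tumour, and each of the 9 had counts in at least 1 tumour of every group.

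None of the 9 cyclophilins differed across the 5 groups or between any 2 groups in edgeR's quasi-likelihood test after Benjamini-Hochberg adjustment over all genes (threshold 0.05). Across the 5 groups 257 genes passed, 1.46% of those tested. The comparison of RMC-7977 with Vehicle called 0.748% of genes and that of RMC-4550 called 0.0283%, while each MEK inhibitor called 0%. DESeq2 called 369 genes for Trametinib and 1 for Cobimetinib. Without Trametinib replicate 4, edgeR called 541 genes for RMC-7977 in place of 132, and without Trametinib replicate 3 it called 1428 for Trametinib. With the replicate number as a block 5 genes passed across groups, 2 for RMC-7977 and 0 for RMC-4550. At an unadjusted p below 0.05 stood 2 of 9 members across groups (15.5% of all genes). Each drug's comparison with Vehicle had 1 such member for Trametinib (18.8% of genes), RMC-7977 (10.3%) and RMC-4550 (4.24%), and 0 for Cobimetinib (3.3%). DESeq2, run as an alternative, called PPIC and PPIF across groups, where it called 7.61% of the genes with an adjusted p, and PPIF under RMC-7977, where it called 3.12%. It called no member under the other 3 drugs. The median member difference from Vehicle was 0.30 on the log2 scale for Trametinib (6 of 9 positive), 0.08 for RMC-4550 (5), -0.04 for Cobimetinib (3) and -0.17 for RMC-7977 (3). The median over all genes lay within 0.01 of 0 in each of these comparisons. Without Trametinib replicate 4, the differences under Trametinib were 0.03 for PPIA, 0.09 for PPIL1, -0.06 for PPIE, -0.12 for PPIH and -0.27 for PPIB. With all tumours they were 0.73, 0.30, 0.33, 0.37 and 0.54. PPID moved up instead, from -0.23 to -0.08.

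**Figure D2:**
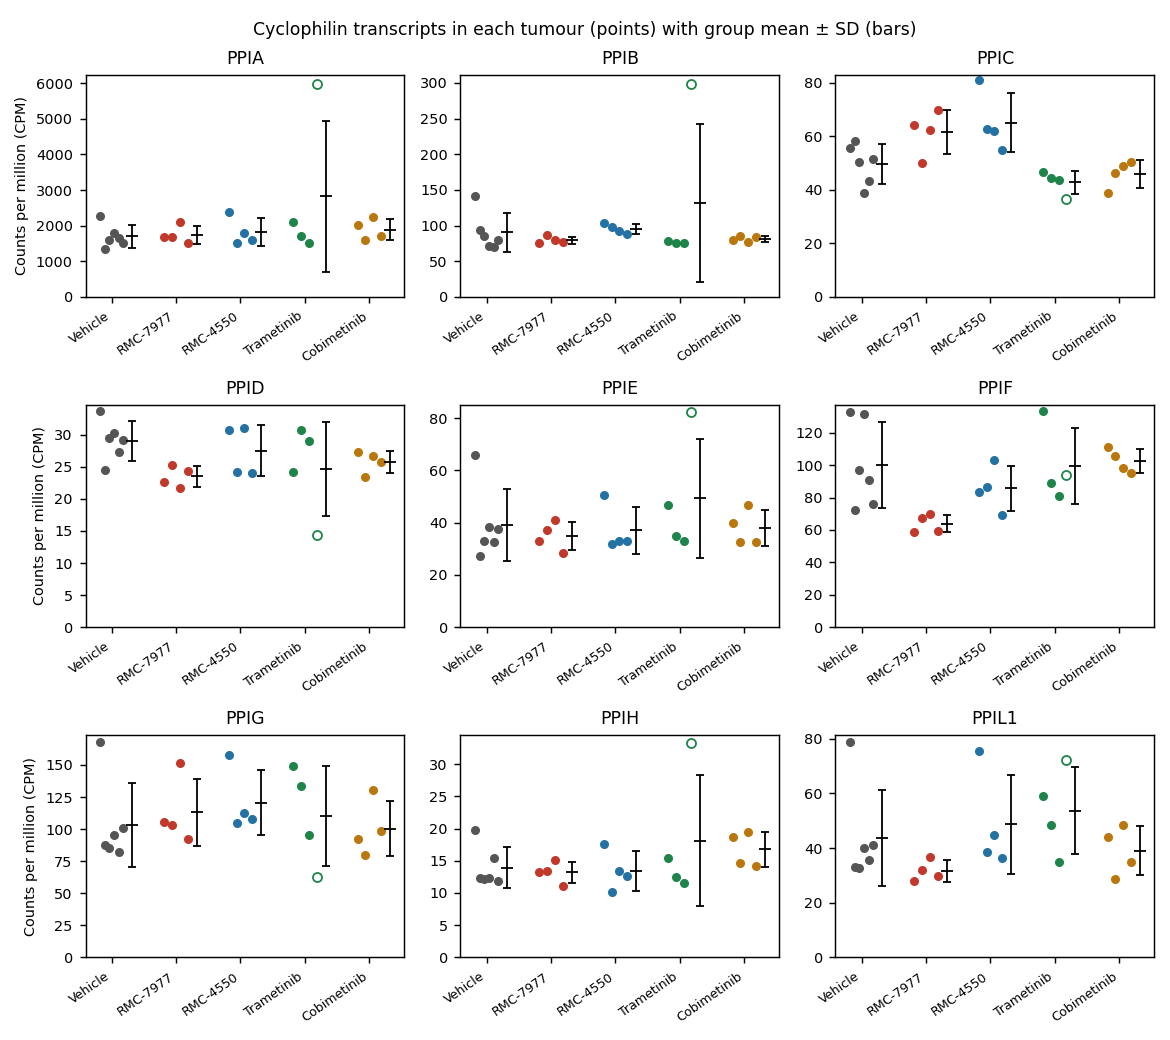
CPM of each cyclophilin in every tumour, in 5 groups along the x axis, with axes from 0. Points are tumours, bars the group mean ± SD, and the open point is Trametinib replicate 4. The 4 RMC-7977 tumours lie below all Vehicle tumours for PPIF (59.0 to 69.6 against 72.4 to 132.9 CPM), and the open point lies above all others for PPIA and PPIB.

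PPIA (ENSG00000196262, chromosome 7, 44796680 to 44824564, plus strand, hg38) encodes the presenter protein. In Vehicle tumours its lowest, median and highest values were 1342, 1630 and 2271 CPM. RMC-7977 tumours held 1687, 1681, 2109 and 1523 CPM in replicates 1 to 4. All 4 values fell inside the Vehicle range. The difference was 0.04 ± 0.29 (log2, SE), with a 95% interval of -0.56 to 0.65 and an adjusted p of 0.990, so changes of up to 1.57-fold up or to 0.677-fold down lie inside the interval. RMC-4550 tumours held 2375, 1510, 1797 and 1606 CPM and Cobimetinib tumours 2019, 1588, 2246 and 1714 CPM. Both groups overlapped Vehicle, with differences of 0.10 ± 0.29 and 0.16 ± 0.29 (log2, SE).

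Under Trametinib PPIA stood at 2104, 1699, 1501 and 5978 CPM, and the last value belongs to replicate 4, the library that stood apart. The difference from Vehicle was 0.73 ± 0.29 (log2, SE; adjusted p = 0.194). Without replicate 4 it was 0.03, and the mean of the other 3 tumours was 1768 ± 308 CPM (SD, n = 3). Without Trametinib replicate 3 instead, it was 1.02 and passed the threshold (adjusted p = 0.0422). PPIA made up 65.97% to 71.6% of the summed RPKM of the 9 members in Vehicle tumours, 70.3% to 74.5% with RMC-7977, 69.6% to 74.3% with Cobimetinib, 66.7% to 71.1% with RMC-4550 and 69.8% to 82.0% with Trametinib, the last in replicate 4. The ranges of all 5 groups overlapped.

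PPIF (ENSG00000108179, chromosome 10, 79347469 to 79355337, plus strand) encodes cyclophilin D, the mitochondrial matrix member that promotes opening of the permeability transition pore. Vehicle tumours held 72.4, 94.1 and 132.9 CPM as lowest, median and highest. RMC-7977 tumours held 59.0, 67.2, 69.6 and 59.6 CPM. All 4 lay below all 6 Vehicle tumours, which was so for 1.9% of all genes, and 2.23% lay above. The difference was -0.65 ± 0.19 (log2, SE), a level of 0.638-fold with a 95% interval of 0.486 to 0.837, unadjusted p = 0.00238 and adjusted p = 0.119 by edgeR's quasi-likelihood test. DESeq2 gave -0.67 with an adjusted p of 0.0162.

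The PPIF difference under RMC-7977 passed the edgeR threshold when Vehicle replicate 2 was left out (-0.74, adjusted p = 0.0455) or Trametinib replicate 4 (adjusted p = 0.0495). Leaving out any 1 tumour gave -0.74 to -0.55. The difference did not pass with the replicate number as a block. PPIF had the highest GC content of the members, 61.1%. Correcting for GC content moved its difference from Vehicle from -0.01 to 0.23 under Trametinib and from 0.03 to -0.14 under Cobimetinib (log2). The PPIF difference under RMC-7977 stayed negative with this correction, and its corrected size is not given here. RMC-4550 tumours held 83.2, 86.7, 103 and 69.4 CPM, Trametinib tumours 133.6, 88.7, 81.0 and 93.8 CPM and Cobimetinib tumours 111.5, 105.6, 98.1 and 95.2 CPM. The RMC-7977 tumours also lay below every Trametinib tumour, as for 2.92% of all genes, and every Cobimetinib tumour, as for 4.73%, while the highest of them, 69.6 CPM, just exceeded the lowest RMC-4550 tumour. Direct differences were -0.64 ± 0.20 from Trametinib (adjusted p = 0.116), -0.68 ± 0.20 from Cobimetinib (adjusted p = 0.206) and -0.42 ± 0.20 from RMC-4550 (adjusted p = 0.672; log2, SE), all by edgeR. Without Trametinib replicate 3 the difference from Trametinib was -0.76 and passed in edgeR (adjusted p = 0.0383). DESeq2 called PPIF against Trametinib, with 4.44% of the genes that had an adjusted p, and against Cobimetinib, with 281 genes in all. It did not call PPIF against RMC-4550.

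Some genes listed as markers of other cells moved with RMC-7977. LAPTM5, a leukocyte membrane protein and 1 of 6 myeloid markers, of which 3 were tested, fell by 3.75 on the log2 scale (adjusted p = 0.00591). The summed myeloid list ran from 6.20 to 10.3 CPM under RMC-7977 and from 11.5 to 26.7 CPM under Vehicle, and its defining marker TYROBP was at 0 in both groups. The endothelial sum ran from 8.96 to 20.8 CPM against 20.8 to 50.5 CPM, most of it from PECAM1, with CDH5, KDR and EMCN below 1 CPM on average. PECAM1, named after its values were seen, fell by 1.71 (log2; adjusted p = 0.0235), while VWF, another endothelial marker, differed by 0.77 ± 0.71. The fibroblast sum, nearly all COL1A1, ran from 91.4 to 213 CPM against 21.1 to 305 CPM, with the other 5 markers below 1 CPM on average. The part of these markers in the PPIF difference was not tested. The tumours are xenografts of a human line, and the handling of host reads is not given. Whether these counts come from the tumour cells, from other cells or from host reads was not tested. Fewer cells of a type also cannot be told apart from less RNA per cell in bulk tumours.

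PPIC (ENSG00000168938, chromosome 5, 123023250 to 123036741, minus strand) encodes cyclophilin C of the secretory pathway. Vehicle tumours held 38.9, 51.0 and 58.2 CPM as lowest, median and highest. RMC-7977 tumours held 64.2, 50.1, 62.4 and 69.8 CPM, and RMC-4550 tumours 80.9, 62.8, 61.9 and 54.8 CPM. In each of these groups 3 tumours exceeded every Vehicle tumour and 1 did not. The differences from Vehicle were 0.31 ± 0.15 (adjusted p = 0.498) and 0.39 ± 0.15 (adjusted p = 0.986; log2, SE). Trametinib tumours held 46.6, 44.6, 43.8 and 36.6 CPM and Cobimetinib tumours 38.7, 46.1, 48.9 and 50.3 CPM, both overlapping Vehicle.

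All RMC-4550 tumours exceeded all Trametinib tumours for PPIC, as for 2.26% of all genes, and all Cobimetinib tumours, as for 4.4%. All RMC-7977 tumours exceeded all Trametinib tumours, as for 3.22% of genes. The largest of these differences was 0.60 ± 0.17 between RMC-4550 and Trametinib (log2, SE; adjusted p = 0.196), followed by 0.52 ± 0.17 between RMC-7977 and Trametinib (adjusted p = 0.119). DESeq2 called both, with adjusted p of 0.0311 and 0.0374, in comparisons where it called 1.01% and 4.44% of genes. Over the 6 pairs of drugs no member passed in edgeR, where 0.0906% of genes passed between RMC-7977 and RMC-4550, 0.408% between RMC-7977 and Trametinib, 0.278% between RMC-7977 and Cobimetinib, 0.0283% between RMC-4550 and Cobimetinib, and 0% in the other 2 pairs. At an unadjusted p below 0.05 stood 5 of 9 members between RMC-7977 and Trametinib (18.2% of all genes) and 2 between RMC-7977 and Cobimetinib (7.45%). There was 1 between RMC-7977 and RMC-4550 (7.39%), RMC-4550 and Trametinib (12.3%), RMC-4550 and Cobimetinib (6.2%), and Trametinib and Cobimetinib (16.7%). Without Trametinib replicate 4 the PPIA and PPIB differences among the 5 were 0.0056 and 0.077 on the log2 scale, against -0.69 and -0.73. Doses differ between the drugs, so these differences hold for the doses given.

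PPIF and PPIC were also set side by side as a ratio of RPKM, a description chosen after their values were seen. It ran from 0.977 to 2.66 in Vehicle tumours, from 1.45 to 2.25 with Trametinib and from 1.48 to 2.26 with Cobimetinib. With RMC-7977 it ran from 0.670 to 1.05 and with RMC-4550 from 0.807 to 1.31. The RMC-7977 and RMC-4550 tumours all lay below the tumours of both MEK inhibitors, and 5 of 6 Vehicle tumours lay above every RMC-7977 tumour. Both members were picked for the smallest p across groups, so the choice itself favours such a separation. The share of other gene pairs that separate in this way was not computed, and the ratio is no further result.

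**Figure D3:**
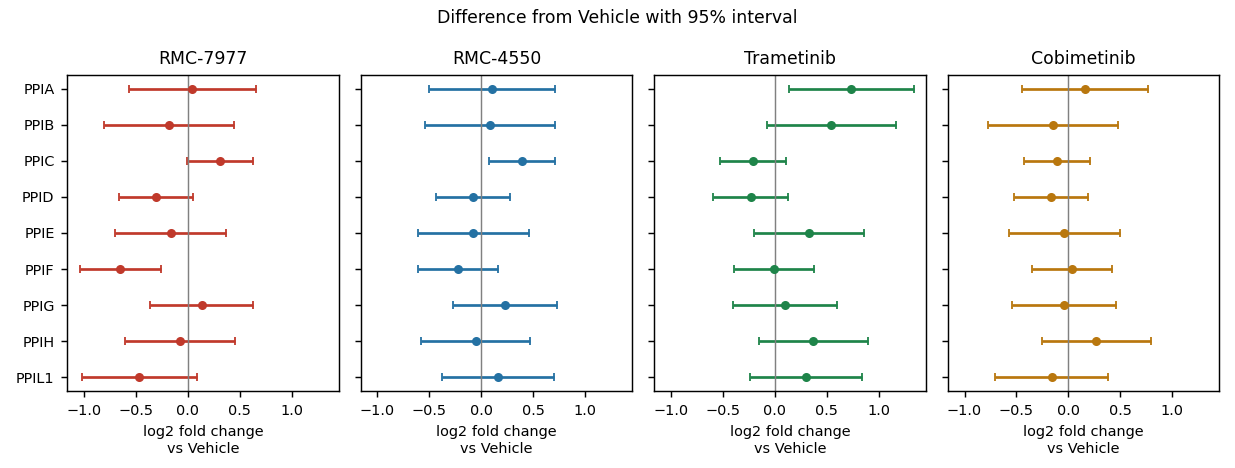
Difference of each cyclophilin from Vehicle (log2 fold change, x axis) for the 4 drugs, with 95% intervals. The interval excludes 0 for PPIF under RMC-7977, PPIC under RMC-4550 and PPIA under Trametinib, and none of the 3 passed the threshold after adjustment over all genes.

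PPIB (ENSG00000166794, chromosome 15, 64155812 to 64163205, minus strand) encodes cyclophilin B, which works in the endoplasmic reticulum with P3H1 and CRTAP on collagen. Vehicle tumours held 70.4, 82.3 and 142 CPM as lowest, median and highest, the last in replicate 1. RMC-7977 tumours held 75.2, 86.4, 80.3 and 76.4 CPM, inside that range, and differed by -0.18 ± 0.30 (log2, SE; adjusted p = 0.936). RMC-4550 tumours held 104, 98.5, 92.7 and 87.7 CPM and Cobimetinib tumours 79.3, 86.1, 77.2 and 84.0 CPM. Every RMC-4550 tumour exceeded every RMC-7977 tumour, as for 4.21% of all genes, and every Cobimetinib tumour (4.4%), while RMC-7977 differed from RMC-4550 by -0.26 ± 0.33 and RMC-4550 from Cobimetinib by 0.23 ± 0.33 (log2, SE), neither past the threshold. Trametinib tumours held 78.3, 75.3, 76.0 and, in replicate 4, 298 CPM, and the mean without it was 76.6 ± 1.57 CPM (SD, n = 3).

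PPID (ENSG00000171497, chromosome 4, 158709134 to 158723396, minus strand) encodes cyclophilin 40, a co-chaperone of HSP90 with tetratricopeptide repeats. Vehicle tumours held 24.5, 29.3 and 33.7 CPM as lowest, median and highest, and RMC-7977 tumours 22.6, 25.3, 21.8 and 24.4 CPM. Of the 4, 3 lay below all Vehicle tumours, and the difference was -0.30 ± 0.17 (log2, SE; adjusted p = 0.589). The other drugs gave -0.08 ± 0.17 (RMC-4550), -0.23 ± 0.17 (Trametinib) and -0.17 ± 0.17 (Cobimetinib). PPID had the smallest spread of the 9 over the 22 tumours, an SD of 0.25 in log2 CPM. HSP90AA1 and HSP90AB1, the HSP90 genes themselves and named after their values were seen, differed by -0.59 ± 0.27 and -0.55 ± 0.20 under RMC-7977 (adjusted p = 0.436 and 0.268).

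The 4 nuclear members meet the spliceosome in different ways: PPIE and PPIL1 join its active complexes, PPIH binds the U4/U6 particle, and PPIG carries an arginine-serine-rich tail. PPIL1 (ENSG00000137168, chromosome 6, 36854827 to 36875024, minus strand) held 32.8, 37.9 and 78.8 CPM in Vehicle tumours as lowest, median and highest, and 27.9, 31.8, 36.9 and 29.7 CPM under RMC-7977. The groups overlapped, and the difference was -0.47 ± 0.27 (log2, SE; adjusted p = 0.594), or -0.21 without Vehicle replicate 1. Under RMC-4550 it held 75.4, 38.4, 44.8 and 36.4 CPM, and RMC-7977 differed from it by -0.63 ± 0.29 (log2, SE; adjusted p = 0.646), or by -0.33 without RMC-4550 replicate 1. Trametinib tumours held 59.1, 48.5, 34.8 and 72.3 CPM, and RMC-7977 differed from them by -0.76 ± 0.29 (log2, SE; adjusted p = 0.173 by edgeR). That difference was -0.57 without Trametinib replicate 4, and -0.98 without replicate 3, where it passed in edgeR (adjusted p = 0.0486). RMC-7977 differed from Cobimetinib by -0.31 ± 0.29 (log2, SE).

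PPIE (ENSG00000084072, chromosome 1, 39692182 to 39763914, plus strand) ranged from 27.0 to 65.9 CPM in Vehicle tumours and from 28.4 to 41.0 CPM under RMC-7977. PPIG (ENSG00000138398, chromosome 2, 169584340 to 169641406, plus strand) ranged from 81.9 to 168 CPM and from 92.3 to 151.5 CPM, and PPIH (ENSG00000171960, chromosome 1, 42658425 to 42676758, plus strand) from 11.8 to 19.7 CPM and from 11.1 to 15.1 CPM. All 3 overlapped Vehicle under every drug, with differences between -0.17 and 0.37 on the log2 scale. Without Vehicle replicate 1 the difference under RMC-7977 was 0.047 for PPIE in place of -0.17, 0.33 for PPIG in place of 0.13 and 0.047 for PPIH in place of -0.08. Vehicle replicate 1 held the highest Vehicle value of all 3 and of PPIA, PPIB, PPID, PPIF and PPIL1.

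The members lay on both sides of the other tumours in Trametinib replicate 4. Against the median of the other 21 tumours it stood at 3.71 times for PPIB, 3.54 for PPIA, 2.49 for PPIH, 2.48 for PPIE and 1.96 for PPIL1. PPIF stood at 1.06 times, and PPIC, PPIG and PPID at 0.725, 0.611 and 0.540 times. PPIA, PPIB, PPIE and PPIH lay above and PPIC, PPID and PPIG below the range of all other tumours, 4 and 3 of 9. Of all genes tested 24.8% lay above and 38.5% below that range in this library, so most genes lay outside it. This library also held the highest share of ribosomal protein genes, as given above, and the part of that share in these values was not tested.

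**Figure D4:**
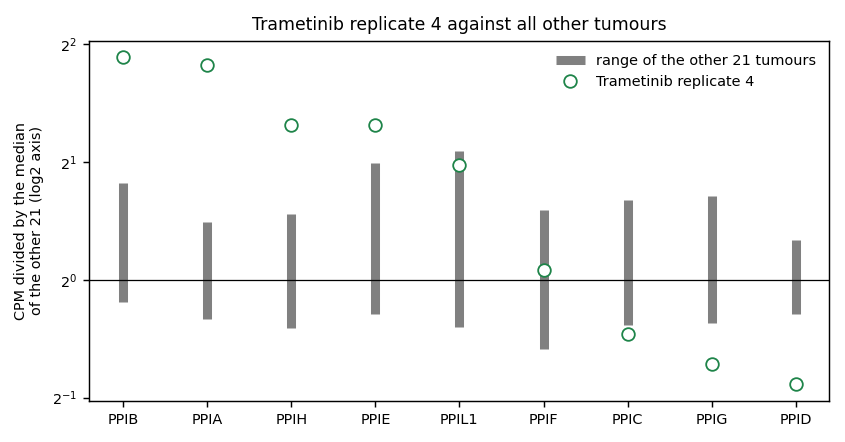
CPM of each cyclophilin in Trametinib replicate 4 (open points) divided by the median of the other 21 tumours, on a log2 axis, with grey bars for the range of those 21. PPIB, PPIA, PPIH and PPIE lie above the bars, PPIC, PPIG and PPID below, and PPIL1 and PPIF inside.

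The genes whose course over the 22 tumours came closest to PPIA, by the root mean square difference of centred log2 CPM, were SNRPC (0.120), PSMB4 (0.132) and COX6B1 (0.133). Closest to PPIC was TMED10 (0.166), to PPID MAT2A (0.117) and to PPIF DDX39A (0.184). Closest to PPIB was MYDGF (0.172), to PPIG GABPA (0.0867), to PPIH MRPS21 (0.160) and to PPIL1 SNRPD1 (0.133). Without Trametinib replicate 4 the nearest gene was RPL36AL for PPIA (0.0847), while MYDGF and MAT2A were again nearest to PPIB and PPID. Among the members PPIA and PPIH were the closest pair (0.175) and PPIB and PPIG the farthest (0.613, and 0.295 without Trametinib replicate 4).

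Related genes were read from 6 lists with 80 listed genes, of which 68 were tested. None of the 68 passed the edgeR threshold across groups or under any drug against Vehicle. For the counts below, 10.3% of all genes tested had an unadjusted p below 0.05 by edgeR under RMC-7977. Of the genes with an adjusted p, DESeq2 called 3.12% under RMC-7977 and 7.61% across groups. Of 8 other cyclophilins tested, 1 had an unadjusted p below 0.05 under RMC-7977, and DESeq2 called 1 across groups. Of 13 FKBP immunophilins, which bind FK506 and rapamycin, 2 had an unadjusted p below 0.05 under RMC-7977 and DESeq2 called 1. FKBP1A, the usual presenter of those drugs, stood at 121.6 CPM under Vehicle and differed by -0.10 ± 0.20 under RMC-7977 (log2, SE; adjusted p = 0.950). Of the 11 calcineurin and NFAT genes and 18 direct partners tested, 2 each had an unadjusted p below 0.05 under RMC-7977, as did 0 of 16 chaperones and foldases of the endoplasmic reticulum, and DESeq2 called none in these 3 lists.

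Some genes of these lists had larger differences under RMC-7977 that did not pass. Named after their values were seen, these were NFATC1, a transcription factor that calcineurin activates (-1.45 ± 0.74; 1.36 CPM under Vehicle), PPIL6 (-0.76 ± 0.31), FKBP4, another HSP90 co-chaperone (-0.68 ± 0.17, adjusted p = 0.0612), and PPP3CC, a catalytic subunit of calcineurin (0.57 ± 0.20; log2, SE).

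The partners named by rule had smaller ones. BSG, the cell surface receptor of secreted cyclophilin A, stood at 543.7 CPM under Vehicle and differed by -0.07 ± 0.26 (log2, SE). P3H1 and CRTAP, which form the collagen-modifying complex with PPIB, differed by 0.06 ± 0.22 and 0.07 ± 0.15. Adjusted p was 0.951 or more for each by edgeR. Among markers, KRT19, an epithelial keratin, differed across groups (adjusted p = 0.0195 by edgeR), as did LAPTM5 (0.00879) and CDH5, an endothelial cadherin (0.0448). CDH5 lay near the floor under Vehicle and RMC-7977, as given above. The endothelial sum had a median of 34.9 CPM and a highest value of 137.8 CPM under Trametinib. The part of single tumours in the CDH5 call is not given here.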

How the data were processed

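RNA of 22 tumours was measured from strand-specific total RNA libraries. The authors deposited raw counts of reads for each gene. The submitters' processing notes name hg38 as the build, and edgeR (3.22.5), DESeq2 (1.20.0), featureCounts (1.5.0-p3), HISAT2 (2.0.5) and fastp as tools. Neither the strand setting nor the handling of host reads and of reads that fit several places is given in these notes.

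Counts were analysed in R (4.3.3). The edgeR (4.0.16) low-count filter (minimum 10) kept 17652 genes and 99.718% of counts. After TMM scaling, 1 robust quasi-likelihood model with 1 mean per group was fitted to all 22 tumours. An F-test across the 5 groups, 4 comparisons with Vehicle and 6 between drugs were 2-sided, with Benjamini-Hochberg adjustment over all genes tested and a threshold of 0.05. The biological coefficient of variation was 0.368. Intervals are 95% from the fit. CPM used TMM library sizes, RPKM the table's gene lengths, and log2 CPM a prior count of 2. Total counts per tumour ran from 7761987 to 13133140 for Trametinib, 12655067 to 15428394 for Cobimetinib, 11951272 to 15888488 for RMC-4550, 10353740 to 15005429 for RMC-7977 and 11160546 to 17265754 for Vehicle. The fit was tested on simulated data.

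Members and gene lists were chosen with earlier results of these data known. Named were all members, up to 3 genes per list with the smallest adjusted p across groups among those past the threshold, FKBP1A, BSG, P3H1, CRTAP, DUSP6, and the protein-coding genes nearest to each member. A few genes taken by this rule are left unreported. Tumours sharing a replicate number were checked for pairing by correlating their deviations from their group's mean. Every pair exceeded 0.1 between Vehicle and Trametinib (0.136 to 0.202, 3 pairs) and between Vehicle and RMC-4550 (0.170 to 0.711, 3 pairs), and no other 2 groups did so throughout. What the number marks is not labelled. Alternatives were a replicate block, PPIA summed with its copies, each tumour left out, fits of the 2 groups alone, DESeq2 (1.42.0), scaling by RLE or by library size, and a filter of mean CPM 1 or none. Leaving out 2 or 4 libraries and correcting for gene length or GC content were added after the data had been seen.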

Additional observations from a re-analysis of the deposited data

Results flagged for a closer look

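In 8 of the 45 combinations of a cyclophilin and a group, 1 tumour stood far from the others of its group by Dixon's criterion, which chance alone meets in about 5% of groups. All 8 lay in 3 libraries. In Trametinib replicate 4, PPIA stood at 5978 CPM (1501 to 2104 in the other 3 tumours) and PPIB at 298 CPM (75.3 to 78.3). In Vehicle replicate 1, PPIB stood at 142 CPM (70.4 to 94.5 in the other 5), PPIE at 65.9 CPM (27.0 to 38.1), PPIG at 168 CPM (81.9 to 100.5) and PPIL1 at 78.8 CPM (32.8 to 41.1). In RMC-4550 replicate 1, PPIE stood at 50.7 CPM (31.7 to 33.0) and PPIG at 158 CPM (104.6 to 112). Both of these last libraries also had among the strongest negative rank correlations of a gene's deviation with its GC content, -0.525 and -0.573 against -0.471 to 0.478 in 18 others, whose part in these values was not tested.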

How the results depend on the processing

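Of 3269 member values under alternatives, 3121 kept their sign and side of the threshold, 123 changed sign in 45 of 99 results with both unadjusted p at 0.05 or more, 16 newly passed the threshold and 9 reversed, which needs the main or alternative unadjusted p to be below 0.05. The 9 all involve Trametinib. Leaving out 1 tumour moved RMC-7977 against Trametinib from -0.99 to 0.0056 for PPIA and from -1.01 to 0.077 for PPIB, and Trametinib against Cobimetinib from -0.13 to 0.95 for PPIB, with Trametinib replicate 4 giving the reversed sign. Without the 2 libraries with few low counts these PPIB values were 0.051 and -0.11, and without the 4 libraries apart 0.058 and -0.11. Without those 4, PPIB was 0.29 for RMC-4550 against Trametinib and PPIH -0.38 for Trametinib against Cobimetinib. The cause was not tested.

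Counts of all genes past the threshold moved more. Main counts were 257 across groups, then 132, 5, 0 and 0 against Vehicle (RMC-7977, RMC-4550, Trametinib, Cobimetinib), then 16, 72, 49, 0, 5 and 0 between drugs (RMC-7977 with RMC-4550, Trametinib and Cobimetinib, RMC-4550 with Trametinib and Cobimetinib, Trametinib with Cobimetinib). In that order DESeq2 gave 1310, 536, 35, 369, 1, 156, 763, 281, 167, 119 and 146, and the fit without 4 libraries 2155, 1134, 11, 2686, 8, 192, 941, 674, 64, 160 and 537. The replicate block gave 5, 2, 0, 0, 0, 20, 0, 31, 0, 0 and 0, and PPIF under RMC-7977 was -0.58 with the block (adjusted p = 0.873). The block changed no member's call. No filter gave 3162, 80, 3, 1, 0, 11, 16, 25, 0, 3 and 0, and library-size scaling 168, 113, 3, 1, 0, 15, 47, 41, 1, 4 and 0. A mean CPM of at least 1 gave 550, 157, 5, 301, 0, 16, 62, 58, 0, 14 and 0, and leaving out 2 libraries 268, 369, 13, 1, 0, 133, 42, 200, 0, 100 and 0. GC correction gave 344, 237, 3, 1, 0, 47, 127, 71, 4, 0 and 0, length correction 286, 154, 2, 0, 0, 16, 74, 33, 1, 4 and 0, and RLE scaling 289, 149, 4, 0, 0, 12, 86, 51, 0, 10 and 0. With only the 2 groups compared the 10 counts were 91, 1, 0, 0, 28, 0, 265, 0, 22 and 0. Leaving out each tumour gave 104 to 889, 43 to 541, 0 to 11, 0 to 1428, 0 to 2, 8 to 105, 0 to 1288, 14 to 202, 0 to 41, 0 to 90 and 0 to 313, each highest count coming without Trametinib replicate 3 or 4. The cause of these changes was not tested.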
